A study of Drosophila melanogaster with 12 samples.

Results

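The aminoacyl-tRNA synthetases are the enzymes that join each amino acid to its transfer RNA. They were taken from the linear RNA table by name, as genes called by a 3-letter amino acid code followed by RS, with or without the ending -m, together with GluProRS. The rule found 29 of the 5954 genes in the table, with 44 of its 10162 transcripts. Of these genes, 11 have names ending in -m, which marks enzymes of the mitochondrion, and 18 do not. In the annotation the rule matches 33 genes, and the other 4, ArgRS-m, GluRS-m, IleRS-m and ProRS-m, were not analysed here. The names alpha-PheRS and beta-PheRS, the subunits of the cytosolic enzyme for phenylalanine, are not matched by the rule and are given separately.

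Stage 14 follicles, the mature egg chambers of the Drosophila melanogaster ovary, came from the wild-type stock Oregon R at day 12 and at day 2. Each day has 3 linear RNA libraries, labelled as biological replicates, and no treatment or allele separates the groups. The labels do not say from which event the days are counted or how many flies were pooled. Values are means that the authors took over the 3 libraries of each day, in their own unit of abundance, and are summed here over the listed transcripts of a gene unless a single transcript is named. With 1 mean per day there is no SD and no test over libraries, and p-values are those of the authors' deposited table.

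Every protein is built from amino acids that a synthetase has first activated with ATP and placed on the matching tRNA. The enzymes fall into class I and class II, families with unrelated catalytic folds. Mitochondria translate their own messages with their own tRNAs, and most need a separate nuclear-encoded synthetase that is imported. For some amino acids an animal gene supplies both compartments, as is known for glycine and lysine, so names without -m are not all purely cytosolic. A stage 14 oocyte is close to silent in transcription, and it stores the messages and proteins with which the early embryo will make its first proteins.

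The tissue label was set against marker genes. All 9 markers of germline and oocyte were measured, each between 63.8 and 1900 at day 12 and between 56.6 and 1702 at day 2. Of 6 late follicle cell symbols, 2 were measured, and their sums went opposite ways. Cp15, an eggshell protein gene, stood at 20.8 at day 12, against 254 at day 2, and Ilp8 at 80.1 at day 12, against 50.1 at day 2, so that the lower sum at day 12, 101 against 304 at day 2, came from Cp15 alone. The 3 measured of 5 earlier follicle cell symbols, the yolk protein genes Yp1, Yp2 and Yp3, summed to 2.43 at day 12 and 21.2 at day 2. Of 3 early germline symbols, 2 were measured. These were bam, at 46.2 at day 12 and 44.2 at day 2, and vas, at 71.3 at day 12 and 76.3 at day 2. None of 20 symbols for muscle sheath, fat body, haemocytes, neurons and testis had a row analysed here. The part of these marker differences in the values below was not tested, and in whole follicles fewer cells of a type and less RNA per cell cannot be told apart.

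Synthetase messages were mostly a little lower at day 12. Of the 29 genes, 21 had the lower sum at day 12, which is 72.4% against 41.5% of all genes. The other 8 had the higher sum at day 12, against 58.5% of all genes. The median log2 change, day 12 over day 2, was -0.17 for the synthetases and 0.04 for all genes. The 29 genes together held 1368 at day 12 and 1499 at day 2, a ratio of 0.913, while the whole table stood at a ratio of 1.01. A sum at least 1.2-fold lower at day 12 was seen in 7 of the 29, against 13.6% of all genes, and one at least 1.2-fold higher in 2, against 5.91%. The 18 genes with 1 listed transcript gave the same median of -0.17, with 13 lower. For 10 of them the annotation holds further transcripts that were not analysed here.

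Hardly any of these differences passed a test on its own. By the adjusted p of the authors' deposited table, at a threshold of 0.05, 1 of the 44 transcripts was called, an assembled transcript of AsnRS-m, which is 2.27% against 0.177% of all transcripts. At an unadjusted p under 0.05 for the most abundant transcript of each gene, there were 9 of 29 genes (31.0%), near the background of 22.5% in the authors' deposited table. Of the 9, 7 were lower at day 12 (24.1% of the genes, background 9.07%) and 2 were higher (6.90%, background 13.5%). Their adjusted p ran from 0.116 to 0.188 in the authors' deposited table, so none of the 9 was called.

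**Figure D1:**
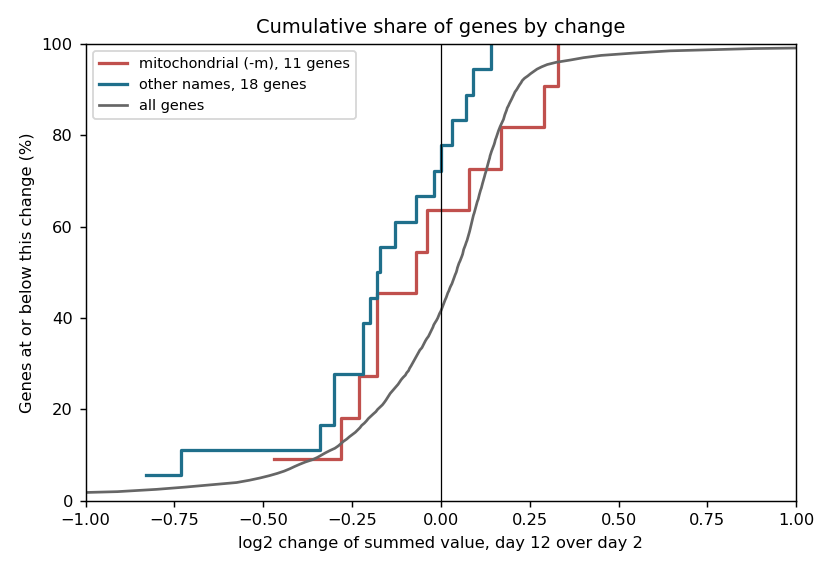
Cumulative share of genes (vertical axis, percent) by log2 change of the summed value, day 12 over day 2 (horizontal axis), for the 11 -m genes, the 18 other synthetase genes and all 5954 genes. At a change of 0, the curve of the other names stands at 77.8% and that of the -m names at 63.6%, both above the 41.5% of all genes.

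Levels lay much farther apart between genes than between days, and the -m messages were the less abundant ones. Over both days the median level was 17.4 for the -m genes and 58.2 for the other names, a ratio of 0.299. None of the 11 -m genes lay above the median level of all genes, 40.3, over both days, whereas 15 of the 18 others did. The submitters' processing notes name StringTie, whose usual output is divided by transcript length, but neither its role nor the exact unit is stated. Setting genes side by side therefore assumes values of that kind. AspRS, for aspartate, was the most abundant synthetase message, with 146 at day 12 and 143 at day 2. SerRS, for serine, followed with 115 at day 12 and 121 at day 2, and ThrRS, for threonine, with 95.9 at day 12 and 121 at day 2. Without spreads, the order of such neighbours cannot be told from equality.

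At the low end of the other names stood GluProRS, at 11.3 at day 12 and 13.9 at day 2. This gene codes for the bifunctional enzyme that charges both glutamate and proline, and its annotated full-length form, of 1714 residues, is the longest synthetase protein here. CysRS, for cysteine, was at 18.7 at day 12 and 18.8 at day 2, within the range of the -m genes. Among the -m genes AspRS-m was highest, at 40.3 at day 12 and 35.9 at day 2, and TrpRS-m, for tryptophan, came next with 35.0 at day 12 and 36.0 at day 2. AsnRS-m was lowest of all 29, at 4.61 at day 12 and 3.66 at day 2, in the lowest 3.4% of all genes by level. The highest and the lowest synthetase message were 35.0-fold apart.

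**Figure D2:**
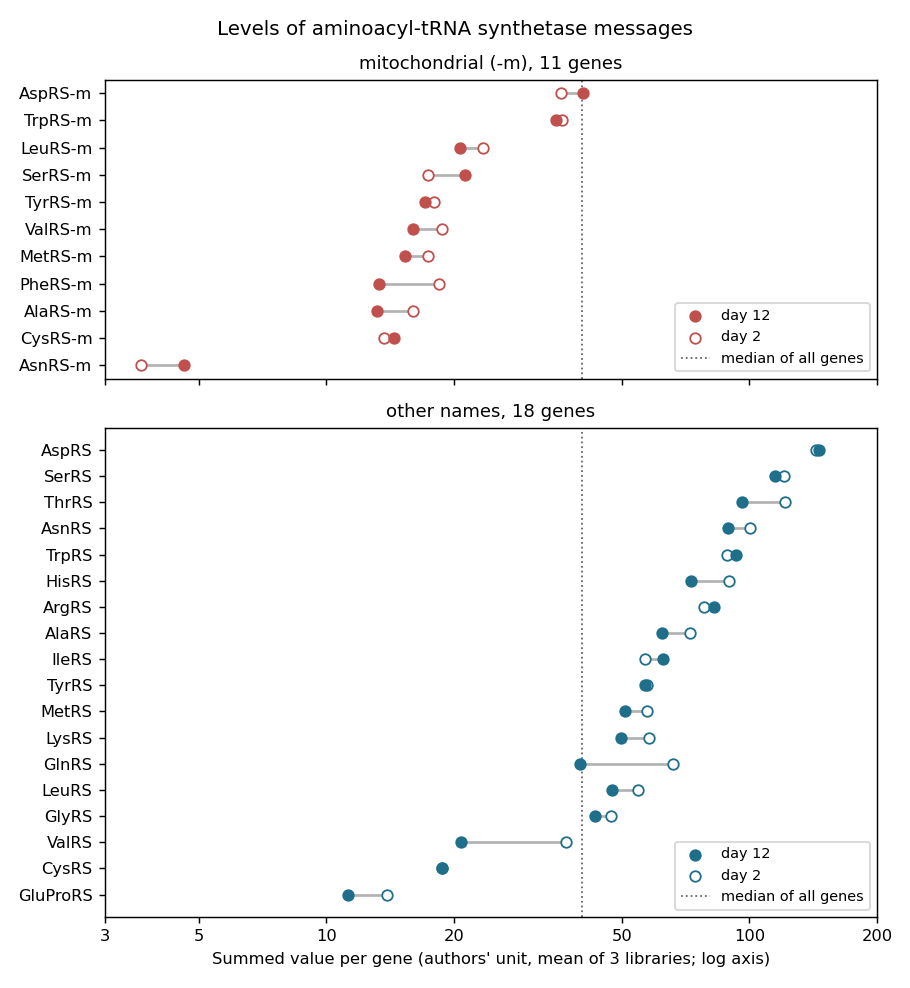
Summed value of each gene at day 12 (filled) and day 2 (open) on a log axis in the authors' unit, each the mean of 3 libraries, with -m genes above and other names below and a dotted line at the median of all genes, 40.3. The -m genes lie left of the line but for AspRS-m at day 12, which is level with it. Of the 18 other genes, 14 lie right of it on both days, and GlnRS does so at day 2 only.

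Among the 18 other names, 14 had the lower sum at day 12 (77.8%, against 41.5% of all genes). The median log2 change of the 18 was -0.17. The genes lower at an unadjusted p under 0.05 were ThrRS, HisRS, AlaRS and AsnRS, which charge threonine, histidine, alanine and asparagine and are all of class II. ThrRS stood at 95.9 at day 12 and 121 at day 2 (log2 change -0.34), and its most abundant transcript had p = 0.00493 before adjustment in the authors' deposited table. HisRS was at 72.7 at day 12 and 89.7 at day 2 (log2 change -0.30, unadjusted p = 0.0130 in the authors' deposited table). The differences were thus about 1.27-fold and 1.23-fold, with day 2 the higher.

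AlaRS, whose enzyme also edits alanine tRNA that carries serine or glycine, had 62.3 at day 12 and 72.5 at day 2 (log2 change -0.22, unadjusted p = 0.00519 in the authors' deposited table). AsnRS had 88.8 at day 12 and 100.4 at day 2 (log2 change -0.18, unadjusted p = 0.00244 in the authors' deposited table). IleRS, for isoleucine, was the exception, at 62.3 at day 12 and 56.5 at day 2. Its most abundant transcript was at 61.8 at day 12 and 54.6 at day 2, with the lowest unadjusted p of any annotated synthetase transcript, 0.00183 in the authors' deposited table, and an adjusted p of 0.116.

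The largest differences did not come with low p-values. ValRS, for valine, summed to 20.8 at day 12 and 36.9 at day 2 (log2 change -0.83), and GlnRS, for glutamine, to 39.8 at day 12 and 65.9 at day 2 (log2 change -0.73). Their most abundant transcripts had unadjusted p-values of 0.301 and 0.374 in the authors' deposited table. Of the further genes, LysRS (log2 change -0.22), LeuRS (-0.20), MetRS (-0.17), GlyRS (-0.13) and GluProRS (-0.30) were lower by sum with p-values of at least 0.0701 before adjustment in the authors' deposited table. LysRS had 49.7 at day 12 and 57.9 at day 2, LeuRS 47.3 at day 12 and 54.6 at day 2, and MetRS 50.8 at day 12 and 57.3 at day 2. The log2 changes of SerRS (-0.07), TyrRS (-0.02), AspRS (0.03), TrpRS (0.07) and ArgRS (0.09) were small. CysRS, counted as lower, changed by only -0.1%. TyrRS was at 56.6 at day 12 and 57.3 at day 2, TrpRS at 92.8 at day 12 and 88.3 at day 2, and ArgRS at 82.7 at day 12 and 77.9 at day 2.

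In mammals, the synthetases for arginine, aspartate, glutamine, glutamate with proline, isoleucine, leucine, lysine and methionine assemble into a multi-synthetase complex. The others are not part of it. Of the 8 Drosophila genes for the specificities of the complex, 5 had the lower sum at day 12, and the median log2 change was -0.19. Of the 10 for enzymes outside it, 9 were lower and 1, TrpRS, was higher, with a median of -0.15. The 4 lower genes with an unadjusted p under 0.05 were all in the group outside the complex, and IleRS was in the complex group. These 4 make up 40.0% of the group outside the complex, against 9.07% of all genes. With only 8 genes, a count of 0 in the complex group cannot be told from that background. By class, 6 of 9 class I genes and 7 of 8 class II genes among the other names were lower, with medians of -0.02 and -0.20. GluProRS, whose enzyme is of both classes, was counted in neither. The difference between these groups of genes was not tested.

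**Figure D3:**
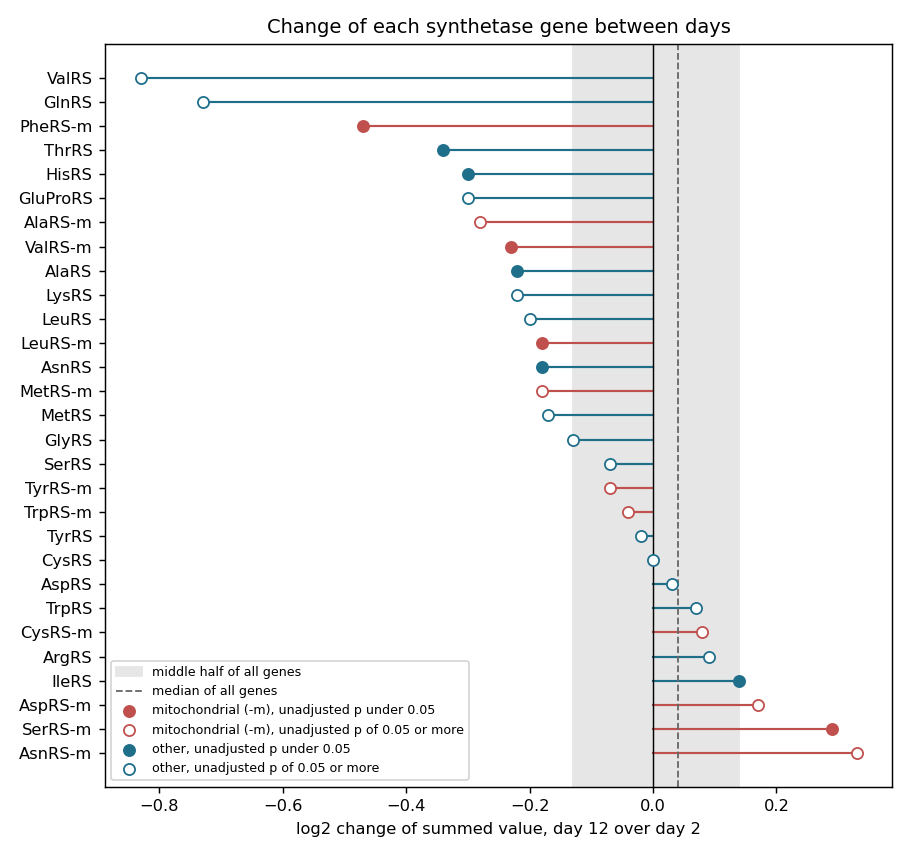
Log2 change of the summed value, day 12 over day 2, for each of the 29 genes, coloured by -m and other names and filled where p of the most abundant transcript was under 0.05 before adjustment in the authors' deposited table. The grey band and the dashed line give the quartiles and the median of all genes, -0.13, 0.14 and 0.04, and 16 of the 29 genes lie left of the band and 4 right of it.

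The 11 -m genes also leaned to lower sums when set against all genes. At day 12, 7 of them had the lower sum and 4 the higher, and the median log2 change was -0.07. PheRS-m, the single-chain mitochondrial enzyme for phenylalanine, was at 13.3 at day 12 and 18.4 at day 2 (log2 change -0.47, unadjusted p = 0.00659 in the authors' deposited table). ValRS-m was at 16.0 at day 12 and 18.8 at day 2, and LeuRS-m at 20.7 at day 12 and 23.4 at day 2, with log2 changes of -0.23 and -0.18. Their unadjusted p-values were 0.0133 and 0.00691 in the authors' deposited table. Each of the 3 has 1 listed transcript, so the gene and the transcript are the same measurement.

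AlaRS-m, at 13.2 at day 12 and 16.0 at day 2, and MetRS-m, at 15.3 at day 12 and 17.3 at day 2, were lower with unadjusted p-values of 0.270 and 0.146 in the authors' deposited table. TyrRS-m, at 17.1 at day 12 and 18.0 at day 2, and TrpRS-m had small log2 changes of -0.07 and -0.04. On the other side stood SerRS-m, at 21.3 at day 12 and 17.4 at day 2 (log2 change 0.29), AspRS-m (0.17), CysRS-m (0.08) and AsnRS-m (0.33). CysRS-m had 14.5 at day 12 and 13.7 at day 2. The higher sums of SerRS-m and AsnRS-m went with a shift between transcripts that is given below.

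The median change of the -m genes was 0.11 above that of the other names on the log2 scale. When a gene is represented by its most abundant transcript and not by its sum, the same difference was -0.01, so its direction depends on how isoforms are treated. For 10 amino acids both forms were measured. In all 10 pairs the -m message was the less abundant, and the other form exceeded it by a median of 3.28-fold over both days, from 1.33-fold for cysteine to 22.9-fold for asparagine. Both forms were lower at day 12 for 5 amino acids and both were higher for aspartate. The forms went opposite ways for asparagine, cysteine, serine and tryptophan. Of these, CysRS changed by only -0.1%, and the log2 changes for tryptophan were only -0.04 for TrpRS-m and 0.07 for TrpRS. The -m form had the higher log2 change in 6 of 10 pairs, by 0.59 for valine, 0.51 for asparagine and 0.36 for serine, and the median paired difference was 0.06. By the most abundant transcript of each gene, the -m form had the higher log2 change in 4 of 10 pairs, with a median paired difference of -0.02. The difference turned to -1.53 for asparagine and to -0.04 for cysteine, and it was 1.42 for valine and 1.14 for serine. On this measure 2 pairs, serine and tryptophan, had opposite signs. For phenylalanine, PheRS-m stood beside alpha-PheRS, at 90.1 at day 12 and 101 at day 2, and beta-PheRS, at 20.5 at day 12 and 22.6 at day 2. Their log2 changes of -0.16 and -0.14 had unadjusted p-values of 0.0705 and 0.313 in the authors' deposited table.

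**Figure D4:**
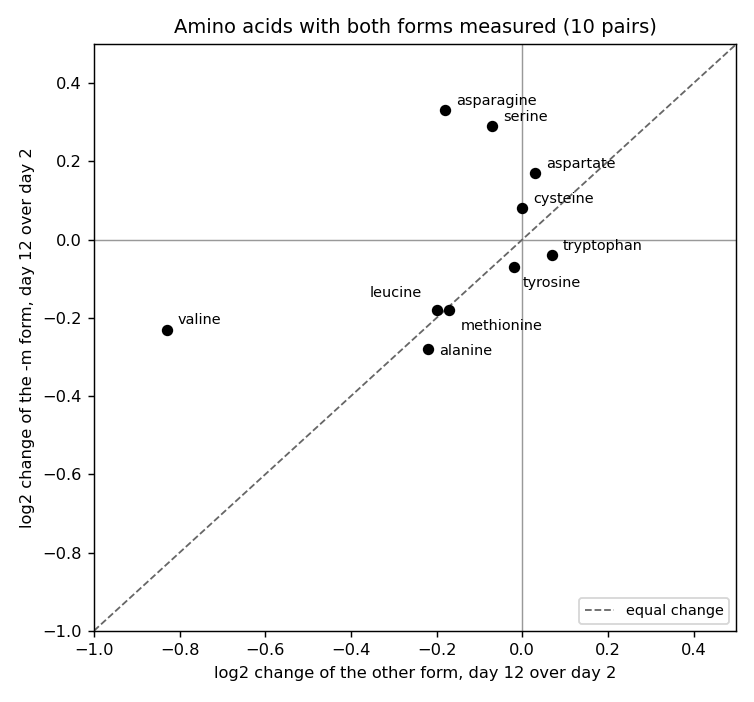
Log2 change, day 12 over day 2, of the -m form (vertical axis) against the other form (horizontal axis) for the 10 amino acids with both measured, with a dashed line of equal change. Leucine, methionine and alanine lie near the line with both forms lower, and valine, asparagine and serine lie farthest above it.

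In some of the 11 genes with more than 1 listed transcript, single transcripts differed more between days than the gene sum did. For SerRS-m, on the plus strand of 3R between 15340667 and 15343218, 2 annotated transcripts share the same protein of 417 residues, the same 5′ UTR of 169 nt and a single exon. They differ in the 3′ UTR, which is 56 nt in the shorter and 1129 nt in the longer. The shorter one was at 15.7 at day 12 and 7.26 at day 2 (log2 change 1.11), and the longer one at 5.65 at day 12 and 10.1 at day 2 (log2 change -0.84). Their unadjusted p-values were 0.00801 and 0.00799, and their adjusted p was 0.164 for both, in the authors' deposited table. The shorter form thus made up 73.5% of the gene at day 12 and 41.8% at day 2. The shorter form, of 1479 nt, lies within the longer one, of 2552 nt, so shared reads had to be divided between them. If values are per length, the gene sum depends on that division. Its part in the higher sum of SerRS-m at day 12 was not tested. Nagk, a gene of the opposite strand that was not analysed here, overlaps all 2552 bp of SerRS-m, and whether reads were assigned by strand is not stated.

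AsnRS-m, on the plus strand of 2R between 17001994 and 17003599, was listed as 3 transcripts assembled by the authors, whose structures were not used here. The called one was at 2.35 at day 12 and 0.00558 at day 2 (adjusted p = 0.0454 in the authors' deposited table, log2 change 8.72). Another had 0.896 at day 12 and 2.93 at day 2, and the last had 1.37 at day 12 and 0.723 at day 2. With a day 2 value so close to 0, the size of the called change has little meaning. The gene sum was 1.26-fold higher at day 12, at the lowest level of the 29 genes, and the depth of the libraries is unknown.

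ValRS had 5 listed transcripts, and at day 12 the value of 2 was higher and that of 3 lower. Its main annotated transcript was at 9.33 at day 12 and 29.4 at day 2 (log2 change -1.66), and a second annotated one at 1.70 at day 12 and 3.44 at day 2. Assembled transcripts went either way, with 5.11, 4.23 and 0.431 at day 12, against 1.56, 0.217 and 2.34 at day 2. The main transcript was 44.9% of the gene at day 12 and 79.6% at day 2, and none of the 5 had an unadjusted p below 0.301 in the authors' deposited table.

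The same exchange between annotated and assembled forms was present in other genes. Of 6 synthetase genes with both kinds, 5 had the annotated sum lower and the assembled sum higher at day 12, which are CysRS, GlnRS, GluProRS, GlyRS and ValRS. Among all 1050 genes with both kinds the share was 30.9%, and the opposite exchange made up 29.8%. For GlyRS, which charges glycine, the annotated transcript stood at 33.2 at day 12, against 45.4 at day 2, and the assembled one at 9.81 at day 12 and 1.62 at day 2. GluProRS had 8.58 at day 12 and 13.3 at day 2 for the annotated form, and 2.68 at day 12 and 0.608 at day 2 for the assembled one. In GlnRS the annotated form, at 36.2 at day 12 and 64.0 at day 2, remained the bulk of the gene. LysRS was the exception, with 33.8 at day 12 and 34.8 at day 2 for the annotated form and 15.9 at day 12 and 23.1 at day 2 for the assembled one. None of these transcripts passed 0.05 before adjustment in the authors' deposited table.

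**Figure D5:**
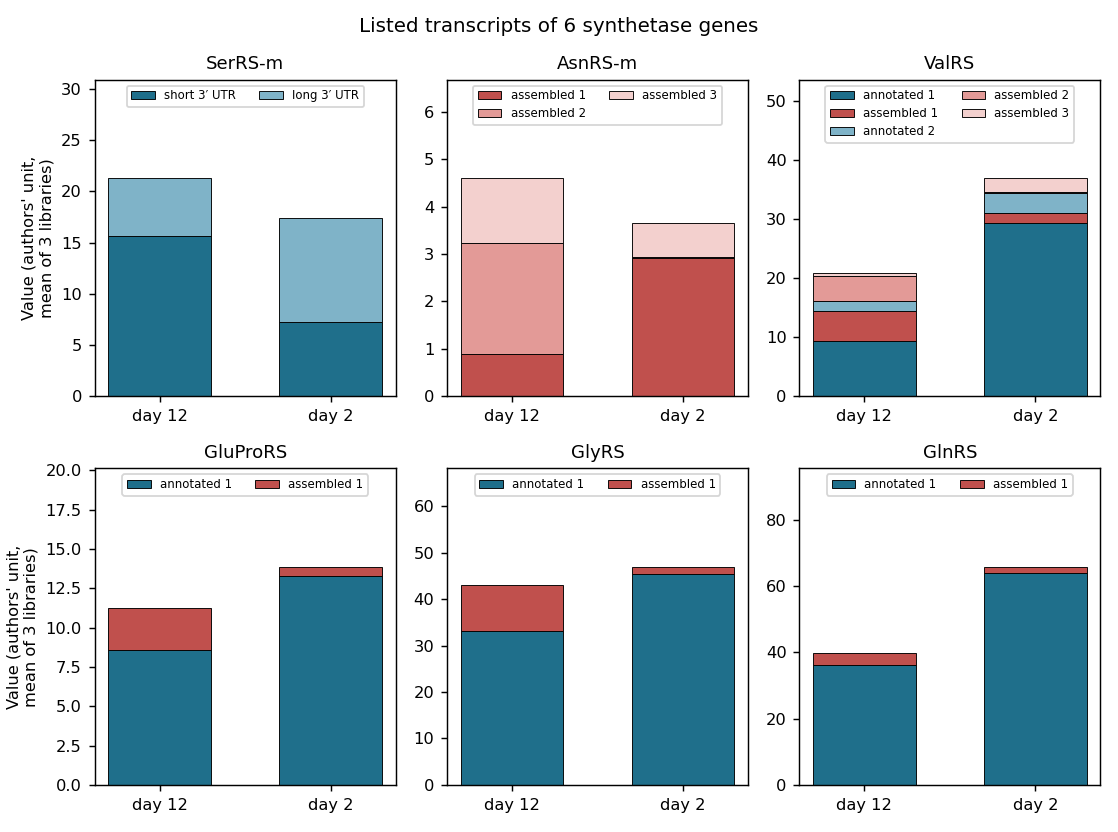
Stacked values of the listed transcripts of 6 genes at day 12 (left bar) and day 2 (right bar), in the authors' unit, each the mean of 3 libraries, with annotated transcripts in blue and assembled ones in red. In SerRS-m the form with the short 3′ UTR is 73.5% of the bar at day 12 and 41.8% at day 2, and in ValRS the main annotated form is 44.9% at day 12 and 79.6% at day 2.

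ThrRS was listed in 2 annotated forms that differ at the start of the protein. The form of 690 residues stood at 78.9 at day 12, against 102 at day 2, and the form of 747 residues at 17.0 at day 12 and 18.9 at day 2. The log2 changes were -0.38 and -0.15, and the longer form was 17.7% of the gene at day 12 and 15.6% at day 2. The annotation holds no -m gene for threonine, glycine, histidine, lysine or glutamine by the naming rule. Of the GlyRS forms, the listed annotated one codes for 679 residues, while forms of 765 residues were not analysed here. SerRS was listed as 2 forms that differ only in the 5′ UTR, of 113 and 253 nt, and the longer was 31.9% of the gene at day 12 and 33.7% at day 2.

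Most listed annotated forms had the shorter 3′ end where the annotation offers a choice. The annotation gives 3′ UTRs that differ by at least 100 nt for 8 of the synthetase genes with a listed annotated transcript. For 7 of them, ThrRS, MetRS-m, CysRS-m, TrpRS-m, AspRS-m, AsnRS and LeuRS, the listed form had the shortest one, to within 50 nt. The share was 87.5%, against 54.4% of the 1758 genes of the table with such a choice. In TrpRS-m the listed form has a 3′ UTR of 62 nt where another annotated form has 326 nt, and in AsnRS the lengths are 181 and 574 nt. SerRS-m was the 1 gene with both ends listed, as was the case for 26.5% of the 1758.

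Some synthetase genes lie within or across other genes, where reads could be shared. An overlap of at least 100 bp with another annotated gene was found for 7 of the 29, which are AspRS, CysRS-m, GluProRS, HisRS, MetRS-m, SerRS and SerRS-m. At any length the count was 13, and the share over all genes is not given here. AsnRS-m shares 37 bp with NiPp1 on the opposite strand, which was at 63.7 at day 12 and 61.0 at day 2. HisRS, on the plus strand of X between 18515428 and 18520445, lies within Bx on the same strand. Bx summed to 40.3 at day 12 and 49.1 at day 2, lower like HisRS. AspRS overlaps 3137 bp of Nmda1 on the opposite strand, which was at 58.3 at day 12 and 55.1 at day 2. Of the other genes with an unadjusted p under 0.05, ThrRS lies at 2L from 12103751 to 12107170, AlaRS at 2L from 8378262 to 8381764, AsnRS at 2L from 19129469 to 19131954 and IleRS at 3L from 22288665 to 22292810. No annotated gene overlaps any of these 4, and none overlaps PheRS-m, ValRS-m or LeuRS-m.

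Genes that work beside the synthetases went both ways. Of 14 measured partner genes, leaving aside alpha-PheRS and beta-PheRS, 8 had the higher sum at day 12 and 6 the lower, and the median log2 change was 0.02. Many symbols of the partner list had no row analysed here, among them all 3 for editing of mischarged tRNA. Measured were 2 of 6 for tRNA end processing, 3 of 6 for the mitochondrial amidotransferase and 4 of 5 for delivery of charged tRNA. Before adjustment, p was under 0.05 in the authors' deposited table for 4 of them (28.6%), 2 higher and 2 lower, near the 22.5% of all genes. The scaffold proteins of the multi-synthetase complex, AIMP1, AIMP2 and AIMP3, had log2 changes of 0.13, 0.02 and -0.14. Gcn2, the kinase that senses uncharged tRNA, was at 14.9 at day 12 and 15.7 at day 2. Its 2 listed transcripts went opposite ways, with 14.0 and 0.882 at day 12, against 4.35 and 11.4 at day 2. Their unadjusted p-values were 0.461 and 0.448 in the authors' deposited table. The transcription factor crc, the Drosophila ATF4, which is translated when amino acids are short, was at 176 at day 12 and 161 at day 2 (log2 change 0.12, unadjusted p = 0.0421 in the authors' deposited table).

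For the delivery of charged tRNA to the ribosome, the cytosolic factor eEF1alpha1 was at 1358 at day 12 and 1362 at day 2. The mitochondrial factor mEFTu1 was at 72.7 at day 12 and 97.6 at day 2 (log2 change -0.43, unadjusted p = 0.0238 in the authors' deposited table), while mEFTu2 was at 34.7 at day 12 and 32.5 at day 2. mEFTs, the exchange factor that recharges mitochondrial EF-Tu with GTP, was at 66.6 at day 12 and 63.0 at day 2 (unadjusted p = 0.00590 in the authors' deposited table). Of the amidotransferase subunits that make glutaminyl-tRNA in mitochondria, GatA was at 19.5 at day 12 and 20.9 at day 2 and GatB at 40.2 at day 12 and 37.3 at day 2. GatC was at 2.79 at day 12 and 0.00112 at day 2 (unadjusted p = 0.404 in the authors' deposited table). It counts among the 8 higher partner genes, though with a day 2 value so close to 0 the size of its change has little meaning. For tRNA end processing, mldr was at 14.3 at day 12 and 17.7 at day 2 (unadjusted p = 0.0401 in the authors' deposited table), whereas scu was at 292 at day 12 and 287 at day 2.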

How the data were processed

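Groups were taken from the sample titles, with 3 linear RNA libraries at day 12 and 3 at day 2. The submitters' processing notes name HISAT2, STAR, StringTie and DESeq2 and the build dm6, without versions or roles. The signal values the authors deposited are abundances per transcript, given as 1 mean per day, and the notes do not say if FPKM or TPM is meant. All values of day 12 add up to 634242, and those of day 2 to 628567. The p-values the authors deposited per transcript come from a test that is not stated. The deposited adjusted p-values were recomputed by the Benjamini-Hochberg method across all 10162 transcripts and matched within 1e-06. No column of a single library was used, so read depth and spread are unknown.

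Values were summed per gene and the log2 ratio of day 12 over day 2 taken with no pseudocount and no filter (Python 3.11.15, pandas 2.3.3). The p of a gene is that of its most abundant transcript, by the mean of both days. The sums and the adjustment were tested on simulated data. Positions, lengths and overlaps come from Ensembl release 115, whose BDGP6 coordinates are those of dm6. The circRNA table names no host genes and was not used. Members, partner genes and groupings were chosen with earlier results of these data known. The grouping by class and complex, the 3′ ends and the comparison of annotated with assembled forms were added after the values were seen. Every member is named, and values were given for members at an unadjusted p under 0.05, the 3 highest and lowest changes and levels of each group, pairs of forms and genes whose transcripts moved opposite ways.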

Additional observations from a re-analysis of the deposited data

How the results depend on the processing

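The median change kept its sign for -m and for other names with the most abundant transcript, annotated transcripts only, a mean of at least 5, a pseudocount of 1 and centring on all genes, ranging from -0.18 to -0.06 and from -0.22 to -0.17 over these alternatives and the reported value. At day 12, 8 of 29 genes were higher as reported, with the most abundant transcript and with a pseudocount, 7 of 29 with centring, 7 of 27 with annotated transcripts only and 7 of 28 with a mean of at least 5. The difference between the medians reversed to -0.01 with the most abundant transcript and was 0.05 to 0.11 otherwise. The level ratio was 0.269 to 0.300. The 1 call, of AsnRS-m, was replaced by 0 when p was adjusted over annotated transcripts or over transcripts with a mean of at least 5. Both leave that transcript out. With the smallest p of a gene, 10 genes had an unadjusted p under 0.05, against 9 as reported. Among single genes, the most abundant transcript reversed AsnRS-m to -1.71 and CysRS to 0.12, and centring reversed AspRS to -0.02. Without a change of sign, the most abundant transcript gave -1.66 for ValRS, -0.63 for GluProRS, -0.45 for GlyRS and 1.11 for SerRS-m, and annotated transcripts only gave -1.57 for ValRS, -0.63 for GluProRS, -0.45 for GlyRS and -0.31 for CysRS. The causes were not tested beyond these constructions. No paired analysis was possible because the deposited table holds 1 mean per day, and for the same reason no library could be left out. Depth is unknown, so values such as those of AsnRS-m cannot be given a counting error.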

Other observations

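The mitochondrial tRNAs, among them the substrates of the -m enzymes, can be set beside the synthetases. Of 14 measured mitochondrial tRNAs, 13 were higher at day 12, against 58.5% of all genes. The lower one, mt:tRNA:Gln-TTG, was listed as an assembled transcript, at 3.97 at day 12 and 8.37 at day 2. For 9 of the 14 the matching -m synthetase was measured. In all 9 the tRNA was higher at day 12, by 0.82 to 2.36 on the log2 scale, while 5 of the synthetase messages were lower and 4 higher. The tRNAs mt:tRNA:Lys-CTT (log2 change 1.27) and mt:tRNA:Gly-TCC (0.39) were not paired, since LysRS (-0.22) and GlyRS (-0.13) have no -m form. mt:tRNA:Asn-GTT was at 8.85 at day 12 and 1.72 at day 2, beside a log2 change of 0.33 for AsnRS-m. mt:tRNA:Met-CAT was at 12.5 at day 12 and 2.60 at day 2, beside -0.18 for MetRS-m. mt:tRNA:Leu-TAA, at 90.4 at day 12 and 38.8 at day 2, stood beside -0.18 for LeuRS-m. None of the 14 tRNAs was called over all transcripts. Their unadjusted p ran from 0.00234 for mt:tRNA:Ile-GAT to 0.109 for mt:tRNA:Ala-TGC in the authors' deposited table. The tRNA genes are 62 to 71 bp long, far shorter than the synthetase messages, and the part of length in their values was not tested.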
